A study of Mus musculus with 24 samples.

Results

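The genes described here encode 10 proteins linked to efferocytosis, the clearance of dying cells by phagocytes: the receptors Axl, Mertk, Stab1, Itgb5 and Timd4, the bridging proteins Gas6, Pros1 and Mfge8, and the macrophage proteins Cd5l and Folr2. They were chosen by symbol, and all 10 were found among the 23420 genes of both expression tables of the series. The tables come from poly-A RNA sequencing of macrophages grown from the bone marrow of male C57BL/6 mice aged 3 months, with 6 days of M-CSF. Each of the 12 groups had 2 samples. Whether the samples of a group stem from different mice or dishes is not in the labels, so a p-value covers the spread between these samples alone, which may be technical.

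In the first experiment, here called the antagonist experiment, cells were treated for 24 h with vehicle (DMSO and ethanol), with the cytokine interleukin-4 (IL-4), with GW9662, a blocker of the nuclear receptor PPARγ, or with IL-4 plus GW9662. In the second, the memory experiment, cells labelled wild type or PpargKO were either unstimulated, given a first IL-4 exposure of 3 h, pretreated with IL-4 for 24 h and washed out for 24 h, or pretreated, washed out and restimulated for 3 h. The labels give IL-4 at 20 ng per µl, printed as labelled, and give no dose of GW9662. They name neither the deleted part of Pparg nor the promoter of any Cre, so the second genotype is called knockout-labelled. Pparg itself read 21.1 CPM (a read count scaled to library size) in unstimulated knockout-labelled cells and 23.0 CPM in wild type, and these reads do not test the deletion.

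Dying cells expose phosphatidylserine, and phagocytes recognise it either directly or through soluble bridges. Gas6 and protein S (Pros1) link phosphatidylserine to TAM receptor kinases, Gas6 to Axl and Mertk and protein S to Mertk. Mfge8 joins phosphatidylserine to integrins such as αvβ5. In macrophages these pairs drive silent uptake, and nuclear receptors that sense the lipids of the meal, PPARγ and LXR among them, are known to regulate several of the genes.

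The deposited columns are means of both libraries of a group, in CPM. Both libraries' values were recovered from the steps that whole reads leave in such a mean, and are called deeper and shallower by their read totals, since their replicate numbers are not known. Of the 120 member values, 5 could not be separated and 7 were settled as the plausible choice among several. The separated genes held 11360236 to 21705313 reads per library in the first experiment and 5105399 to 12735567 in the second. Fold changes are log2 ratios of the authors' means with 1 CPM added to each. Standard errors (SE) and Benjamini-Hochberg adjusted p-values are from limma across all genes tested, and "rose", "fell" and "called" stand for an adjusted p under 0.05.

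Macrophage markers were present, with 7 of 7 at 1 CPM or more in every library, although Lyz2 read 14.5 to 41.8 CPM in the knockout-labelled groups and 21966 to 30727 in wild type. The other 6 markers summed to 12310 to 15090 CPM in knockout-labelled and 8761 to 12779 in wild-type groups. A library of the restimulated wild-type group stood apart, since the 11 fibroblast and stroma genes summed to 1780 CPM in its deeper library and to 65.8 in its shallower one, against at most 11.9 in the other wild-type libraries, 17.5 in knockout-labelled and 2.90 in antagonist libraries. Libraries also differed in the level at which genes with sequence copies read. The labels do not mention this difference, and its origin was not tested. Over 240 such genes, 14 libraries read low and 10 high, here called the low and high counting kind. The low ones held all 8 knockout-labelled but 1 of 8 wild-type libraries, so counting kind cannot be told apart from genotype except in washed-out cells. The washed-out wild-type group had 1 library of each kind, and no other memory group held both. Counting kind as a term in the memory fits therefore rested on this pair alone and was carried over to the other conditions. A call kept or lost under that term there does not separate counting kind from genotype. The members share no 50-base stretches with other genes, apart from Itgb5 at 8.46% of its sequence.

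Levels of the members spanned a wide range. Per kilobase of annotated exon, the authors' means of unstimulated wild-type cells were highest for Stab1, a scavenger receptor that also takes up dying cells, at 681 CPM per kb, and for Gas6 at 370. Folr2, a folate receptor of tissue macrophages, stood at 169 CPM per kb and Itgb5, the integrin β5 chain, at 123. Cd5l, a secreted scavenger-receptor-type protein that opsonises debris, followed at 62.4 and Mfge8 at 32.5. The TAM receptors were lower, with 23.0 for Mertk and 14.8 for Axl, and Pros1 lay at 22.6. Timd4, a direct phosphatidylserine receptor of resident macrophages, was at the detection limit, with at most 6 reads and 0.602 CPM in any of the 24 libraries. It had no reads in both IL-4 libraries of the antagonist experiment, where 3 reads would be 0.138 and 0.181 CPM. Under the filter on low values it was not tested, which leaves 9 members per comparison. On GRCm38.p6, the build named mm10 in the submitters' processing notes, RefSeq places Axl (gene ID 26362) at chr7:25756500-25788924 on the minus strand and Mertk (17289) at chr2:128698915-128803162 on the plus strand. Gas6 (14456) lies at chr8:13465374-13494535 and Mfge8 (17304) at chr7:79133768-79149060, both on the minus strand. Pros1 (19128) lies at chr16:62854307-62929346 and Cd5l (11801) at chr3:87357881-87371074, both on the plus strand. Folr2 (14276) lies at chr7:101839988-101857190 and Stab1 (192187) at chr14:31139017-31168651, both on the minus strand. Itgb5 (16419) lies at chr16:33829665-33949338 and Timd4 (276891) at chr11:46810786-46844333, both on the plus strand. The exons of Stab1 overlap Nt5dc2, and whether counting used strand is not given in the sources used here.

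The first question was what a day of IL-4 does to these genes. After 24 h both TAM receptors, Stab1, Gas6 and Cd5l were lower, and Pros1, Mfge8 and Folr2 were higher. Of 9 tested members, 5 fell and 3 rose, where limma called 18.3% of 11140 genes, 8.4% lower and 9.86% higher. The members' median log2 ratio was -0.87, and that of all genes tested was -0.0045. In bulk RNA, fewer cells of a type and less RNA per cell cannot be told apart. Marker lists moved in the same comparison. Of 7 macrophage markers limma called 5 lower and 0 higher, among them Emr1 (3365 to 1404 CPM), Fcgr1 (530 to 90.1 CPM) and Cd14 (571 to 60.7 CPM). Cd68 went the other way (1684 to 2780 CPM), and Csf1r went from 8093 to 6354 CPM. The list summed to 38977 and 39186 CPM with vehicle and 17772 and 17813 with IL-4, and Lyz2 held the largest part (23273 and 6409 CPM). Markers that could not be separated, Lyz2 among them, entered both sums of a group as the authors' mean. These sums therefore do not show the spread between libraries. The 4 endothelial markers summed to 11.2 and 12.2 CPM with vehicle and 214 and 299 with IL-4, nearly all of it Vwf (11.3 to 256.3 CPM), while Emcn had no reads. The part of these shifts in the members' values was not tested.

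**Figure D1:**
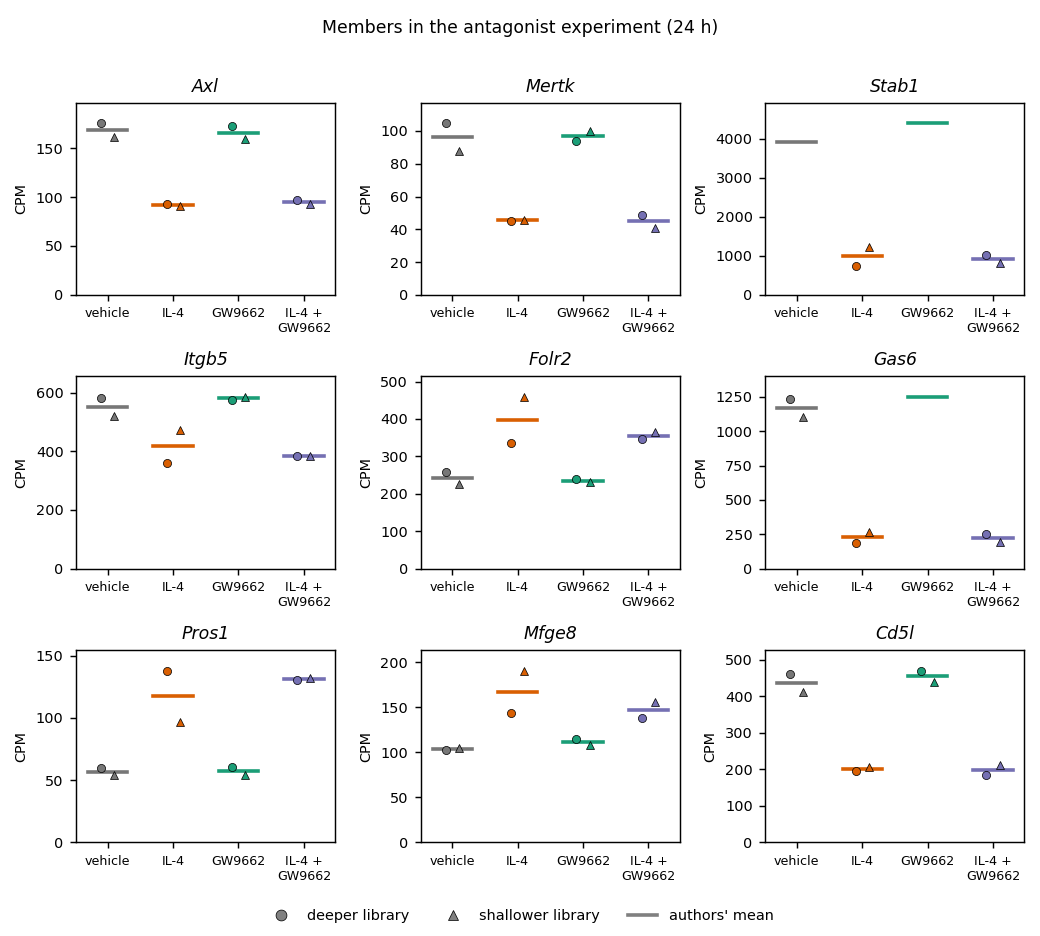
Level of 9 members (CPM, linear axes from 0) in the 4 groups of the antagonist experiment. Circles are deeper and triangles shallower libraries, bars are the authors' means, and a bar alone marks a mean that could not be separated. IL-4 groups with and without GW9662 lie side by side, as do vehicle and GW9662 alone, and Gas6 and Stab1 show the widest gaps between them.

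Both TAM receptors fell. Axl, which is known as the TAM receptor of activated macrophages, read 176 and 161 CPM with vehicle and 93.1 and 90.9 with IL-4 (log2 ratio -0.87, SE 0.16, limma adjusted p = 0.0098). Mertk, the main efferocytic receptor kinase of resting macrophages, read 105 and 87.8 CPM with vehicle and 45.3 and 45.9 with IL-4 (-1.06, SE 0.23, limma adjusted p = 0.018). For both receptors each IL-4 library lay below each vehicle library. Stab1 went from a mean of 3929 CPM, which could not be separated, to 745 and 1231 CPM (-1.99, SE 0.30, limma adjusted p = 0.0088), and with the vehicle spread unknown its error rests on the other groups. Itgb5 read 581 and 519 CPM with vehicle and 360 and 474 with IL-4, a difference that did not pass (-0.40, SE 0.16, limma adjusted p = 0.13).

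Among the bridges, Gas6 had the largest ratio of the 9. It read 1235 and 1105 CPM with vehicle, a plausible separation, and 186 and 270 with IL-4 (log2 ratio -2.35, SE 0.27, limma adjusted p = 0.0020). Pros1, the other TAM ligand, moved the opposite way, from 59.6 and 53.7 to 138 and 96.8 CPM (1.04, SE 0.21, limma adjusted p = 0.014). After 24 h of IL-4 the authors' mean of Gas6 was therefore 5.11-fold lower, and that of Pros1 2.05-fold higher, each with 1 CPM added. Per kilobase, Gas6 stood at 89.5 CPM with IL-4 and Pros1 at 35.6.

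Mfge8 rose from 102 and 105 CPM to 143 and 191 (log2 ratio 0.69, SE 0.18, limma adjusted p = 0.040), and Folr2 from 258 and 227 to 335 and 459 CPM (0.71, SE 0.18, limma adjusted p = 0.036). Cd5l fell from 462 and 412 to 195 and 207 CPM (-1.12, SE 0.19, limma adjusted p = 0.0065). For these 3 genes, too, the libraries of the groups were apart. In this report libraries lying apart is a description, and the share of all genes so placed was not counted. With no filter on low values the calls of Mfge8 and Folr2 were lost (limma adjusted p = 0.057 and 0.060). The Mfge8 call was lost when either vehicle library or either GW9662 library was left out (limma adjusted p 0.067 to 0.10), and that of Folr2 in 3 of these 4 cases (0.070 to 0.087).

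Pros1 and Cd5l, which moved in opposite directions, are the members whose promoter windows hold a STAT6-type motif, TTC and GAA with 4 free bases between them, the letters bound by the factor that IL-4 activates. They are shown for that reason. The windows are RefSeq's, on GRCm38.p6, from 250 bases before to 50 bases after the annotated start, 5′ to 3′ on the gene's own strand, with the motif in capitals. Pros1 lies on the plus strand at chr16:62854057-62854356 and Cd5l on the plus strand at chr3:87357631-87357930.
Pros1: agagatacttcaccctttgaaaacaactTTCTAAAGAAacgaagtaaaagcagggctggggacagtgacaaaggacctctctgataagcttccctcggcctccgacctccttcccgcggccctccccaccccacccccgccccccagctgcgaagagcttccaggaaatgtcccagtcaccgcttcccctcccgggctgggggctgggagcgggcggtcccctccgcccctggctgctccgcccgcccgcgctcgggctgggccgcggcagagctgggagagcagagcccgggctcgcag
Cd5l: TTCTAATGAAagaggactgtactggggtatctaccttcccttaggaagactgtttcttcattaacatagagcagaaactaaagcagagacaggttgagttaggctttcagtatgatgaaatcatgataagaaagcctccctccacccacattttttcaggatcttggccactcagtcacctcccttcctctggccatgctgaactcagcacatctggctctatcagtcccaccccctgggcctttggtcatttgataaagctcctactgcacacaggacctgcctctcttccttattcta

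The motif begins at base -222 of Pros1 and at base -250 of Cd5l. All 10 members have a window, Folr2 has 2 of them, and the motif stood in 2 of these 11 windows against 6.95% of 32851 RefSeq windows of the same length. It reads the same on both strands. No member window held the PPAR-RXR letters, AGGTCA repeated after 1 free base, which stand in 0.0396% of windows. The same was true of the LXR letters, AGGTCA repeated after 4 free bases (0.0152%), and of the MAF letters, TGCTGA and GCA with 4 free bases between them (0.387%). All were searched on both strands, and the PPAR-RXR and LXR letters share a hexamer and can overlap. A match is a description of these letters and does not show binding.

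Whether the blocker changed these genes was asked with and without IL-4, and no effect of GW9662 on a member was resolved. Against vehicle, limma called 0 of 9 members and 0% of 10938 genes. Before adjustment, 0 members and 260 genes had a p under 0.05, and limma-voom also called 0. The members' log2 ratios lay between -0.05 for Folr2 and 0.16 for Stab1. The 95% interval for Axl ran from -0.20 to 0.15, and that for Mfge8 from -0.09 to 0.30. Adding GW9662 to IL-4 gave 0 calls of 9 members in limma and 0% of 10867 genes, with 0 members and 1 gene at a p under 0.05 before adjustment. By limma-voom there were also 0. The ratios lay between -0.18 for Mfge8 and 0.16 for Pros1. Without the deeper IL-4 library, limma called Pros1 higher (0.44) and Mfge8 (-0.38) and Folr2 (-0.37) lower.

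With GW9662 present in both arms, IL-4 moved all 9 tested members past the threshold, with 3 higher and 6 lower (51.4% of 11130 genes were called, 26.3% higher and 25.1% lower). More calls here than against vehicle do not show a broader response. The log2 ratio between a group's 2 libraries had a robust spread of 0.505 with IL-4 alone and 0.140 with both agents. In the fit IL-4 alone had a weight of 0.211, both agents 1.44 and GW9662 alone 2.67. Gas6 stood at 249 and 195 CPM with both agents against a mean of 1251 with GW9662 alone (log2 ratio -2.49, SE 0.12, limma adjusted p = 8.5e-06). Mertk read 48.9 and 40.7 against 93.9 and 99.9 CPM (-1.10, SE 0.10, limma adjusted p = 7.3e-05). Pros1 read 131 and 132 CPM against 60.5 and 54.2 (1.18, SE 0.09, limma adjusted p = 2.9e-05). Itgb5, at 384 and 383 against 576 and 585 CPM, was called here (-0.60, SE 0.07, limma adjusted p = 0.00031). The Mfge8 call (0.40) was lost without either GW9662 library and without the shallower library of both agents (limma adjusted p 0.081 to 0.15). Both GW9662 libraries and the deeper library of both agents were of the low counting kind.

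For the change that GW9662 made to the response, limma called 0 of 9 members and 0% of 11232 genes. Before adjustment 0 members and 13 genes had a p under 0.05, and limma-voom called 0. The 95% interval of that difference was -0.35 to 0.48 for Axl, -0.84 to 0.60 for Gas6 and -0.74 to 0.19 for Mfge8, so differences of that size are not resolved.

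The memory experiment asked how a first exposure of 3 h, a past exposure and a second one compare. After 3 h the members that moved were lower, in both genotypes. In wild type, 5 of 9 fell and 0 rose, where limma called 49.8% of 11345 genes, 25.1% lower and 24.7% higher. In knockout-labelled cells 6 of 9 fell and 0 rose, where it called 44.3% of 11208, 22.8% lower and 21.5% higher.

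**Figure D2:**
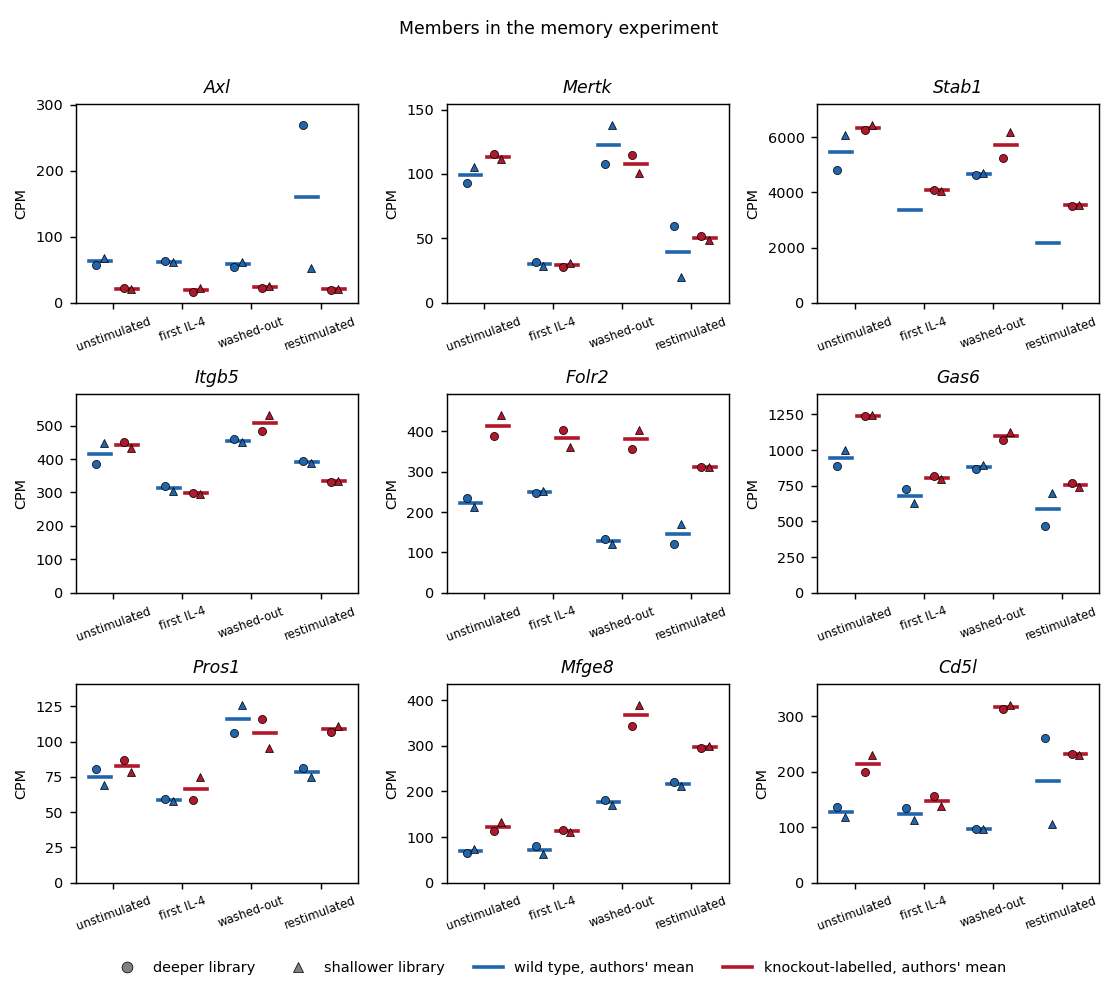
Level of 9 members (CPM, linear axes from 0) in the 8 groups of the memory experiment, wild type in blue and knockout-labelled in red. Circles are deeper and triangles shallower libraries, bars are the authors' means, and a bar alone marks a mean that could not be separated. Mertk drops with each 3 h exposure and returns after washout, Mfge8 is high in pretreated groups, and Axl is low and Folr2 high throughout the knockout-labelled groups.

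Mertk had the largest early ratio. It read 92.7 and 105 CPM in unstimulated and 31.6 and 28.6 in first-exposed wild-type cells (log2 ratio -1.69, SE 0.11, limma adjusted p = 3.2e-09). In knockout-labelled cells it read 116 and 111, then 27.8 and 30.9 CPM (-1.92, SE 0.12, limma adjusted p = 9.3e-10). Axl, its sister kinase, showed no such drop, at 58.1 and 68.3 CPM before and 63.5 and 61.2 after in wild type (-0.02, SE 0.14, limma adjusted p = 0.94), with a 95% interval of -0.32 to 0.29. Stab1 fell in wild type from 4807 and 6083 CPM, a plausible separation, to a mean of 3362 (-0.70, SE 0.09, limma adjusted p = 3.0e-05). Itgb5 fell there from 384 and 448 to 319 and 305 CPM (-0.41, SE 0.06, limma adjusted p = 6.6e-05).

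Gas6 fell with the first exposure in wild type from 886 and 999 to 725 and 629 CPM (log2 ratio -0.48, SE 0.07, limma adjusted p = 5.3e-05). In knockout-labelled cells it went from 1240 and 1243 to 816 and 796 CPM (-0.62, SE 0.08, limma adjusted p = 4.3e-06). Pros1, higher after a day of IL-4, was lower after 3 h, at 80.5 and 68.9 CPM before and 59.4 and 57.9 after in wild type (-0.34, SE 0.11, limma adjusted p = 0.013). This call was lost without the deeper unstimulated library (-0.23, limma adjusted p = 0.26), without either first-exposed one (limma adjusted p 0.13 and 0.17), and without group weights (0.11). Cd5l fell in knockout-labelled cells from 199 and 230 to 156 and 138 CPM (-0.54, SE 0.11, limma adjusted p = 0.00060), a call lost without the shallower unstimulated library (0.059) and without group weights (0.22). In wild type it read 136 and 118, then 135 and 114 CPM, and the difference between genotypes in this response did not pass (-0.51, SE 0.15, limma adjusted p = 0.28).

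Mfge8 and Folr2 gave no call at 3 h in either genotype. The wild-type log2 ratio of Mfge8 was 0.07, and its libraries read 64.6 and 73.8 CPM before and 81.3 and 63.8 after. For Folr2 it was 0.16, from 234 and 213 to 248 and 252 CPM. In the test of the first response between genotypes limma called 0 of 9 members and 0.0261% of 11494 genes. Before adjustment 2 members and 1444 genes (12.6%) had a p under 0.05, and limma-voom called 0 genes.

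**Figure D3:**
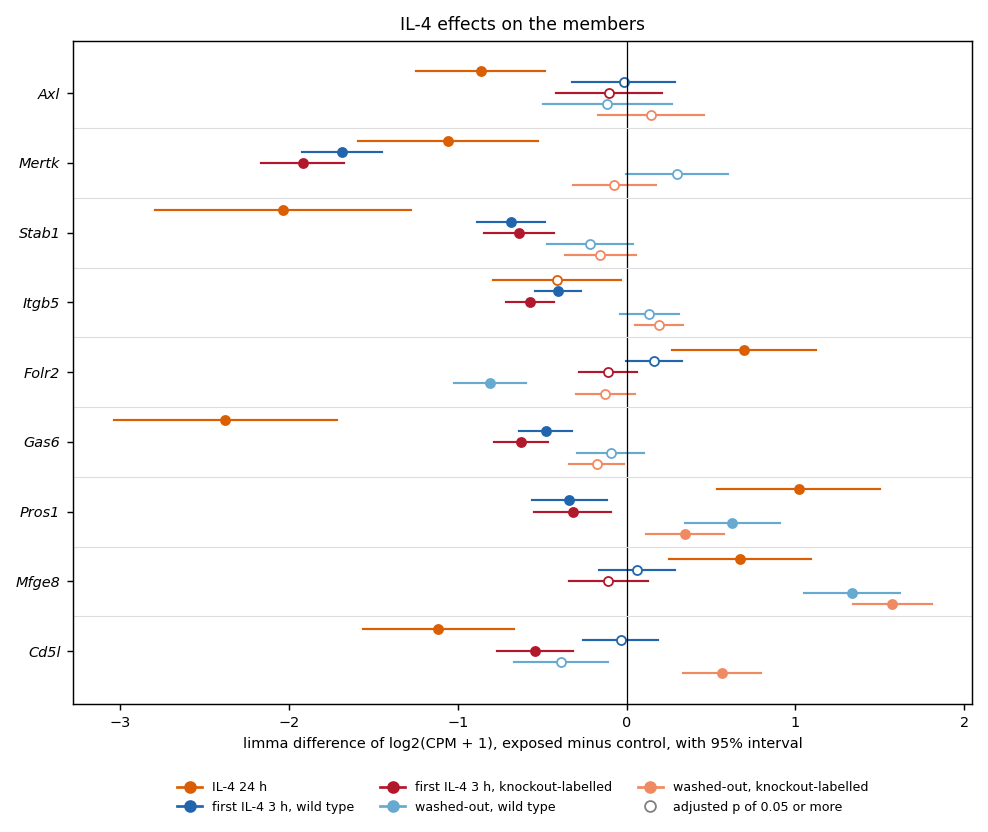
Difference in log2(CPM + 1) between exposed and control cells for 9 members (points) with 95% intervals (lines), for 24 h of IL-4 against vehicle and, in each genotype, for a first 3 h exposure and for pretreatment with washout against unstimulated cells. Filled points have a limma adjusted p under 0.05. Mertk, Stab1 and Gas6 lie left of 0 under both exposures, Mfge8 lies right of 0 at 24 h and after washout, and Axl leaves 0 at 24 h alone among these contrasts.

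A day after washout, Mfge8 and Pros1 were the bridges that stood above cells never exposed. In wild type 2 members rose and 1 fell (of 11369 genes 14.5% were called, 7.41% higher and 7.11% lower). In knockout-labelled cells 3 rose and 0 fell (of 11230 genes 20.1% were called, 9.59% higher and 10.5% lower). Mfge8 read 182 and 170 CPM in washed-out wild type against 64.6 and 73.8 unstimulated (log2 ratio 1.33, SE 0.13, limma adjusted p = 5.3e-06). In knockout-labelled cells it read 344 and 390 CPM against 113 and 133 (1.57, SE 0.11, limma adjusted p = 7.2e-08). The groups did not overlap in either genotype, and Mfge8 was the member with the largest ratio in both.

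Pros1 read 106 and 126 CPM in washed-out wild-type cells against 80.5 and 68.9 (log2 ratio 0.63, SE 0.13, limma adjusted p = 0.0041). In knockout-labelled cells it read 116 and 95.7 against 86.9 and 78.7 CPM (0.35, SE 0.11, limma adjusted p = 0.033). The wild-type call was lost without the shallower unstimulated library (limma adjusted p = 0.073) and with counting kind as a term (0.058). The knockout-labelled one was lost without either unstimulated library (0.20 and 0.44), without the deeper washed-out library (0.38), without the shallower restimulated wild-type library (0.076) and without group weights (0.24).

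After washout Folr2 was called in wild type and Cd5l in knockout-labelled cells. Folr2 fell in wild type from 234 and 213 to 134 and 120 CPM (log2 ratio -0.81, SE 0.10, limma adjusted p = 4.1e-05) and stood at 389 and 440, then 356 and 404 CPM in knockout-labelled cells (-0.13, SE 0.08, limma adjusted p = 0.31). Cd5l read 136 and 118, then 96.2 and 96.9 CPM in wild type (-0.39, SE 0.13, limma adjusted p = 0.060), and rose in knockout-labelled cells from 199 and 230 to 314 and 320 CPM (0.56, SE 0.11, limma adjusted p = 0.0014). The rise of Cd5l was lost without the deeper unstimulated library of that genotype (0.13) and without group weights (0.37), and its wild-type ratio was called lower without either first-exposed (0.046) or the deeper restimulated (0.040) wild-type library. The test of the difference between genotypes gave 0.68 for Folr2 (SE 0.13) and 0.95 for Cd5l (SE 0.17), each with a limma adjusted p of 0.16. Over all 11507 genes that test called 0% in limma, with 2 members and 889 genes at a p under 0.05 before adjustment and none called by limma-voom. Without the deeper washed-out wild-type library it called Folr2 (adjusted p = 0.00038) and Cd5l (0.00054), and without the shallower one it called Cd5l (0.034).

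Mertk had returned by then, at 108 and 138 CPM in wild type (log2 ratio 0.31 against unstimulated, SE 0.14, limma adjusted p = 0.18, and 0.029 without the deeper washed-out library) and 115 and 101 in knockout-labelled cells (-0.07, SE 0.12, limma adjusted p = 0.71). Gas6 lay at 868 and 894 CPM in wild type (-0.10, SE 0.09, limma adjusted p = 0.57). Axl was at 54.7 and 61.8 CPM (-0.12, SE 0.18, limma adjusted p = 0.74). Neither Stab1 nor Itgb5 was called in either genotype.

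Restimulation brought Mertk down again. In wild type it was the single member called among 9, lower, where limma called 4.93% of 11958 genes, 2.26% lower and 2.68% higher. It went from 108 and 138 to 59.9 and 19.8 CPM (log2 ratio -1.60, SE 0.38, limma adjusted p = 0.013, and 0.054 with no filter on low values). The deeper restimulated library, the one with high fibroblast genes, held the higher Mertk value. Its part in these results was not tested beyond leaving it out. Axl read 269 CPM in it and 52.6 in the shallower library, and Cd5l 261 and 105. Without that library limma called Mertk (-2.57), Pros1 (-0.62), Gas6 (-0.33) and Itgb5 (-0.23) lower, and Folr2 (0.42) higher. Without the shallower one it called Axl (2.19) and Cd5l (1.42) higher and Mertk (-1.02), Gas6 (-0.90) and Pros1 (-0.50) lower. Stab1 stood at -1.10 with all libraries (limma adjusted p = 0.063). Its restimulated wild-type mean could not be separated, so leaving out either of these libraries kept the mean of both in the fit. Stab1 was called when any unstimulated or washed-out wild-type library was left out.

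**Figure D4:**
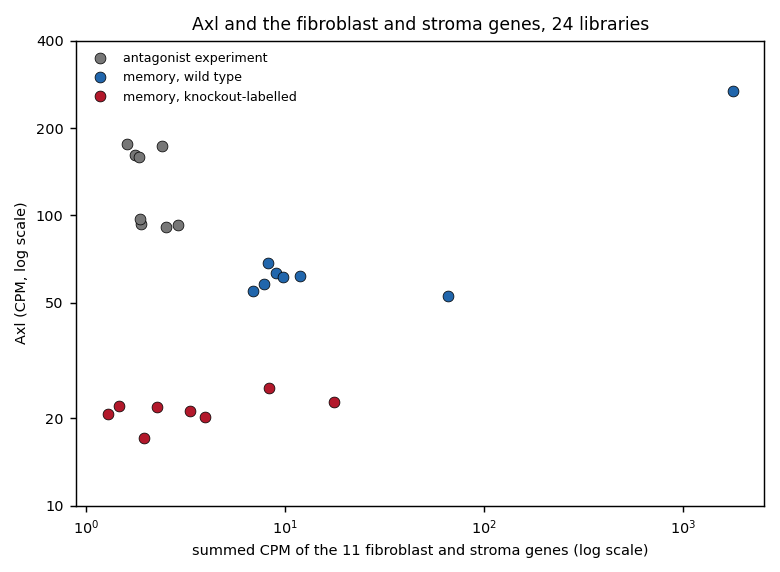
Axl (CPM, log axis) against the summed CPM of the 11 fibroblast and stroma genes (log axis) in each of the 24 libraries. The deeper restimulated wild-type library lies alone at 1780 and 269 CPM. Wild-type and knockout-labelled libraries are apart in Axl, and their fibroblast sums overlap in part. These sums run from 1.28 to 17.5 CPM in knockout-labelled libraries (median 2.8) and from 6.93 CPM upward in wild-type ones (median 9.37). The part of the fibroblast genes in the Axl difference between genotypes was not tested.

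In knockout-labelled cells, restimulation gave 7 members lower and 0 higher of 9 (of 11282 genes 35.9% were called, 16.6% lower and 19.3% higher). Mertk went from 115 and 101 to 52.1 and 49.1 CPM (log2 ratio -1.08, SE 0.12, limma adjusted p = 2.4e-06). Stab1 (-0.69), Itgb5 (-0.61), Gas6 (-0.54), Cd5l (-0.45), Mfge8 (-0.30) and Folr2 (-0.29) fell as well. Without group weights limma called 3 of the 9, and Mertk then had an adjusted p of 0.050. The call of Mfge8 (limma adjusted p = 0.049) was lost when any of 10 libraries was left out (0.050 to 0.38). Those of Cd5l (0.058 to 0.090) and Folr2 (0.15 to 0.24) were lost without the shallower washed-out or either restimulated library of that genotype.

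Set against the first exposure, the second left Mertk less depressed in knockout-labelled cells, at 52.1 and 49.1 CPM against 27.8 and 30.9 (log2 ratio 0.77, SE 0.12, limma adjusted p = 0.00021). Mfge8 (1.38), Pros1 (0.70) and Cd5l (0.65) were higher there too, and Folr2 was lower (-0.30), which makes 4 of 9 higher and 1 lower (of 11190 genes 23% were called, 12.9% higher and 10.1% lower). Without group weights limma called 2 of these 5, Mfge8 and Pros1. The calls of Mertk (limma adjusted p = 0.24), Cd5l (0.24) and Folr2 (0.27) were lost. By limma-voom Mertk was not called either (adjusted p = 0.36). The Folr2 call was also lost without the deeper first-exposed library (-0.22) or either restimulated library (-0.30). In wild type limma called 0 of 9 members (of 11880 genes 0.32%, 0.194% higher and 0.126% lower). Before adjustment 2 members and 1024 genes (8.62%) had a p under 0.05. By limma-voom 3 of 8 members and 1059 genes were called. Mfge8 had the ratio nearest to a call, at 222 and 211 CPM against 81.3 and 63.8 (1.56, SE 0.35, limma adjusted p = 0.070). Its libraries did not overlap. It was called without group weights (limma adjusted p = 2.6e-05) and when the deeper first-exposed library, either washed-out or either restimulated wild-type library was left out (at most 0.017). For Mertk the wild-type ratio was 0.39 with both restimulated libraries, -0.58 without the deeper and 0.97 without the shallower one, both of the latter called.

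The genotype comparison set knockout-labelled against wild-type cells in each condition. Axl was lower and Folr2 and Mfge8 were higher in the 3 conditions in which members were called, and Cd5l was higher in 2 of them. Of 9 tested members, 4 were higher and 1 lower in unstimulated cells, where limma called 18.5% of 11280 genes, 7.82% higher and 10.7% lower. After the first exposure 2 were higher and 1 lower (9.2% of 11245 genes were called, 1.59% higher and 7.61% lower). In washed-out cells 3 were higher and 1 lower (3.38% of 11347 genes were called, 1.44% higher and 1.95% lower). Of the 7 macrophage markers, 3 were higher and 1, Lyz2, lower in unstimulated knockout-labelled cells, 0 and 1 after the first exposure, and 2 and 1 in washed-out cells, and the part of this in the members' values was not tested.

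**Figure D5:**
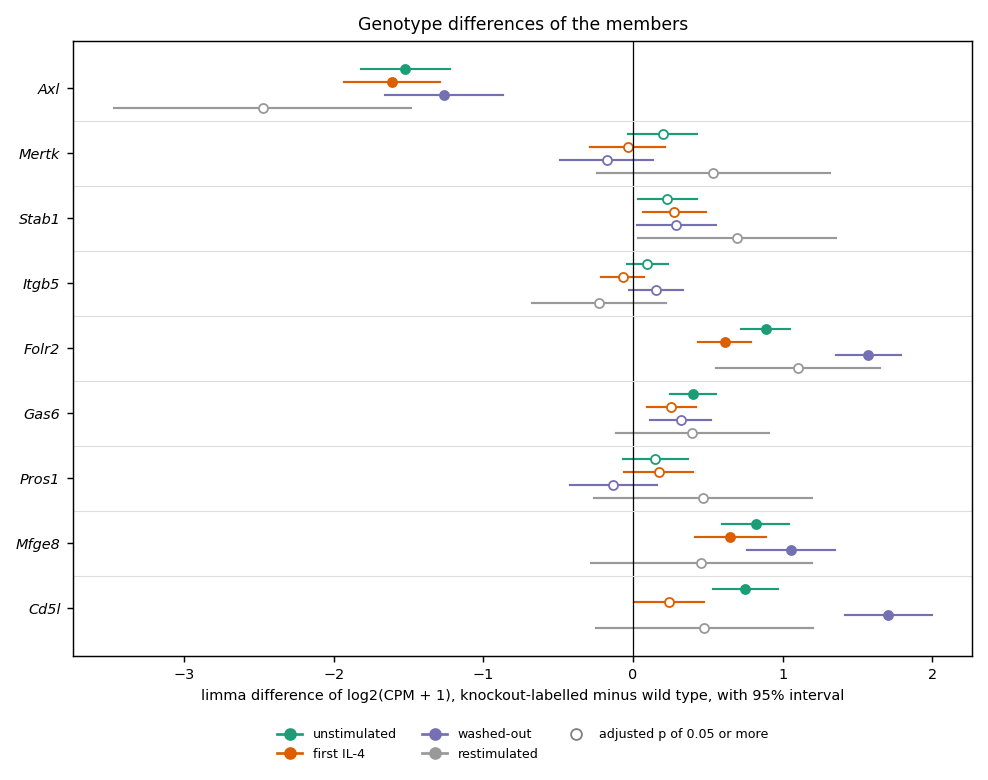
Difference in log2(CPM + 1), knockout-labelled minus wild type, for 9 members (points) with 95% intervals (lines) in the 4 conditions. Filled points have a limma adjusted p under 0.05. Axl lies left of 0 and Folr2 and Mfge8 right of it in unstimulated, first-exposed and washed-out cells, and intervals of the restimulated cells are the widest.

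Axl read 17.1 to 25.5 CPM over the 8 knockout-labelled libraries, with a median of 21.5, and 52.6 to 269 CPM over the 8 wild-type ones, with a median of 61.5. Without the library of high fibroblast genes, wild type reached 68.3 CPM. Every knockout-labelled library lay below every wild-type one. The log2 ratio was -1.53 in unstimulated cells (SE 0.14, limma adjusted p = 9.1e-06), -1.60 after the first exposure (SE 0.15, limma adjusted p = 8.0e-06) and -1.26 in washed-out cells (SE 0.19, limma adjusted p = 0.0019). In restimulated cells it was -2.90 and did not pass (limma adjusted p = 0.17), while without the deeper wild-type library it was -1.31 and did (limma adjusted p = 3.7e-06), and without the shallower one it was -3.64. These calls rest on group weights, since a fit that gave all libraries 1 spread, the library of 269 CPM included, left limma adjusted p of 0.16, 0.15 and 0.32 in these 3 conditions in the same order. With the weights, Axl stayed called in each of the 3 when any 1 of the 16 libraries was left out. In washed-out cells, where a wild-type library of the low counting kind exists, Axl read 61.8 CPM in it against 23.7 in knockout-labelled cells (-1.35).

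Folr2 showed the same separation upward. It read 310 to 440 CPM in knockout-labelled libraries (median 376) and 120 to 252 in wild-type ones (median 192). The log2 ratio was 0.89 in unstimulated cells (SE 0.08, limma adjusted p = 4.8e-06), 0.61 after the first exposure (SE 0.08, limma adjusted p = 0.00017) and 1.57 in washed-out cells (SE 0.10, limma adjusted p = 2.5e-07). In restimulated cells it was 1.08 (SE 0.26, limma adjusted p = 0.17), with 311 and 310 CPM against 122 and 171. In the low counting kind the washed-out ratio was 1.65, from 120 CPM in the wild-type library to 380. The first-exposure call was lost with counting kind as a term, at a larger ratio (0.77, limma adjusted p = 0.092).

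Cd5l differed most in washed-out cells, at 314 and 320 CPM in knockout-labelled and 96.2 and 96.9 in wild-type libraries (log2 ratio 1.70, SE 0.14, limma adjusted p = 3.6e-06). Unstimulated libraries read 199 and 230 against 136 and 118 CPM (0.75, SE 0.10, limma adjusted p = 0.00010). After the first exposure the ratio was 0.24 and did not pass (SE 0.11, limma adjusted p = 0.22). The unstimulated call was lost without group weights (0.75, limma adjusted p = 0.27) and with counting kind as a term (0.74, limma adjusted p = 0.40), at ratios close to the one above.

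Mfge8 was higher in knockout-labelled cells by 0.82 in log2 ratio unstimulated (SE 0.10, limma adjusted p = 7.1e-05), from 64.6 and 73.8 to 113 and 133 CPM. The ratio was 0.64 after the first exposure (SE 0.11, limma adjusted p = 0.00083) and 1.06 in washed-out cells (SE 0.14, limma adjusted p = 0.00092). With counting kind as a term the unstimulated and first-exposure calls were lost at ratios of 0.91 and 0.74 (limma adjusted p = 0.17 and 0.55), and the first-exposure call was also lost without the shallower wild-type library (0.072). In washed-out cells of the low kind it read 367 CPM against 170 (1.10). Gas6 was called in unstimulated cells alone, at 1240 and 1243 against 886 and 999 CPM (0.40, SE 0.07, limma adjusted p = 0.00099), and that call was lost with counting kind as a term (0.36, limma adjusted p = 0.56), without group weights (adjusted p = 0.21) and without the deeper wild-type or either knockout-labelled library (0.093 to 0.10). After the first exposure it stood at 0.25 (SE 0.08, limma adjusted p = 0.052).

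Mertk, Pros1, Stab1 and Itgb5 gave no genotype call in any condition with all libraries in the fit. Their unstimulated log2 ratios lay between 0.09 for Itgb5 and 0.22 for Stab1, with 95% intervals of -0.04 to 0.43 for Mertk and -0.07 to 0.37 for Pros1. Stab1 was called higher unstimulated without the shallower wild-type library (0.40, limma adjusted p = 0.031). In restimulated cells limma called 0 of 9 members, 0.0168% of 11894 genes lower and 0% higher. Before adjustment 3 members and 1046 genes (8.79%) had a p under 0.05. By limma-voom 3 of 8 members and 715 genes were called. Without the deeper restimulated wild-type library limma called Axl (-1.31) and Itgb5 (-0.22) lower, and Mertk (1.31), Cd5l (1.13), Folr2 (0.86), Pros1 (0.53) and Mfge8 (0.49) higher. Stab1 stayed at 0.70, since its wild-type mean could not be separated and entered that fit as the mean of both libraries.

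In the order of the 8 memory groups, the 4 knockout-labelled groups came lowest for Axl, with means of 19.9 to 23.7 CPM that overlapped with their neighbours, then a gap to the wild-type groups, which overlapped among themselves. For Folr2 the washed-out (127 CPM) and restimulated (146 CPM) wild-type groups came lowest and overlapped, the unstimulated (223 CPM) and first-exposed (250 CPM) ones followed, and all knockout-labelled groups (311 to 414 CPM) came above. For Mertk the 4 groups under 3 h of IL-4 came lowest (29.3 to 50.6 CPM), each overlapping the next, and the 4 groups without it came above (99.1 to 123 CPM).

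Other genes of the clearance pathway were read from 7 lists of 65 genes. The shares of all genes called in the same comparisons are repeated beside the counts, and nothing is read from a list near them. Of 12 tested further receptors of apoptotic cells, 4 rose with 24 h of IL-4 and 0 fell, where 9.86% of all genes rose and 8.4% fell. They were Itgb3, the integrin β3 chain that pairs with αv (9.09 to 74.2 CPM, limma adjusted p = 0.00086), the fatty acid and thrombospondin receptor Cd36 (306 to 843 CPM, limma adjusted p = 0.011), the Stab1 relative Stab2 (3.09 to 8.26 CPM, limma adjusted p = 0.019) and, outside the naming rule, Cd300lb (439 to 790 CPM, limma adjusted p = 0.018). The median log2 ratio of this list was 0.42. Of 7 tested bridging or opsonising proteins 2 rose, namely Lgals3, the lectin galectin-3 (3783 to 12194 CPM, limma adjusted p = 0.0085), and Anxa1, a phosphatidylserine-binding annexin (236 to 1198 CPM, limma adjusted p = 0.0018). Thbs1, the bridge thrombospondin-1, fell from 208 to 12.7 CPM (limma adjusted p = 0.00011).

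In the same comparison, Pilra, an inhibitory receptor, fell from 32.4 to 1.27 CPM (log2 ratio -3.88, limma adjusted p = 0.00014), the single call among 4 genes that restrain uptake. Of 11 tested engulfment signalling genes, Elmo2, part of the Rac-activating complex, rose (1.82), and its relative Elmo1 (-0.51) and the exchange factor Vav1 (-0.67) fell. Of 10 phagosome genes, the lysosomal nuclease Dnase2a rose (1.09), and the oxidase subunit Cybb (-1.41) and 1700021K19Rik, listed under this older symbol of Rubcn, fell (-0.90). Of 9 lipid handling genes 3 rose and 2 fell: the sterol exporter Abcg1 (2.13), Pparg (1.82) and the LXRα gene Nr1h3 (1.19), against the sterol exporter Abca1 (-1.10) and Ppard (-0.76, outside the naming rule). Of 5 genes for shedding or vitamin K-dependent modification limma called 0. Before adjustment 1 of them had a p under 0.05, as had 30.7% of all genes.

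After the first 3 h in wild type, where 49.8% of all genes were called (24.7% higher and 25.1% lower), 3 of 11 tested further receptors were higher and 4 lower. Itgb3 (log2 ratio 1.32) and the activating receptor Cd300lb (1.29) rose, and the scavenger receptor Lrp1 fell (-0.61). Among bridges Thbs1 (-1.72) and Anxa1 (-0.34) fell and Lgals3 rose (0.26), and among engulfment genes the exchange factor Trio rose (1.08) and Dock1 (-0.43) and Vav1 (-0.36) fell. Phagosome genes had 6 of 10 lower and 1 higher, with Cybb (-0.63), the protease Ctsl (-0.62), 1700021K19Rik (-0.60) and Lamp2 (-0.39) among the lower. Abca1 fell from 210 to 21.4 CPM (-3.24), as did Rxra (-0.49) and Ppard (-0.48), while Abcg1 rose (1.37). Pilra fell (-0.81) and Cd47, the signal that restrains uptake, rose (0.40). Adam17, the protease that sheds Mertk from the surface, fell from 393 to 252 CPM (-0.64, SE 0.07, limma adjusted p = 9.7e-07).

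After washout in wild type, where 14.5% of all genes were called, 4 of 12 further receptors were higher and 3 lower, among them Stab2 (log2 ratio 1.43) and Itgb3 (0.97) higher and Itgav, the αv chain (-0.86), and Lrp1 (-0.48) lower. Thbs1 (1.86) and Lgals3 (0.87) were higher, and Elmo1 (-0.64) and Vav3 (-0.44) lower. Of 9 lipid handling genes 4 were higher, namely Abcg1 (1.24), Abca1 (0.92), Nr1h3 (0.81) and Rxra (0.44), and 0 lower. Lamp1 (0.38) and Cybb (0.34) were higher, and Sirpa, the receptor of the CD47 signal, was lower (-0.42). On restimulation in wild type (4.93% of all genes called), Cybb (-1.25), Abca1 (-1.59) and Adam17 (-0.82) fell, and Cd300lb (0.65), named outside the rule as the single receptor called, rose.

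Between genotypes, C1qa, C1qb and C1qc, the chains of C1q, which opsonises dying cells, and Lgals3 were the 4 of 7 bridging genes called higher in unstimulated and again in washed-out knockout-labelled cells, where 7.82% and 1.44% of all genes were higher. The list medians were 0.33 and 0.38, and the medians of all genes 0.01 and -0.02. C1qa read 1842 against 1225 CPM unstimulated (log2 ratio 0.59, SE 0.07, limma adjusted p = 6.4e-05) and 1902 against 1200 washed-out (0.66, SE 0.09, limma adjusted p = 0.0017). With counting kind as a term, the washed-out comparison rests on the 1 wild-type library of the low kind. The ratios there were 0.72 for C1qa, 0.44 for C1qb, 0.52 for C1qc and 0.43 for Lgals3. The unstimulated calls were lost with the term (limma adjusted p of 0.12 to 0.52). Their ratios, 0.70 for C1qa, 0.48 for C1qb, 0.52 for C1qc and 0.42 for Lgals3, were no smaller than before.

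Trem2, a lipid-sensing phagocytic receptor, was higher in knockout-labelled cells unstimulated (log2 ratio 0.40), after the first exposure (0.24) and washed-out (0.54, limma adjusted p = 0.0039). With counting kind as a term the ratios were 0.53, 0.37 and 0.61, and the last remained called (limma adjusted p of 0.36, 1.00 and 0.0042). Abcg1 was lower unstimulated (-0.45) and after the first exposure (-0.68), and so was Nr1h3 (-0.59 and -1.12). Neither gene's calls held with counting kind as a term, where Abcg1 stood at -0.48 and -0.71 and Nr1h3 at -0.23 and -0.75.

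Cd300a was lower unstimulated (log2 ratio -0.21) and after the first exposure (-0.49), and Itgav (-0.38) and Cd300lf (4.47 against 13.3 CPM, -1.38) were lower unstimulated. With counting kind as a term none of these calls held, and the ratios were -0.10 and -0.38 for Cd300a and -0.63 for Itgav, while Cd300lf turned to 0.91. Rab7 (-0.68 and -0.82) and Vkorc1l1 (-1.30 and -1.40), lower in unstimulated and first-exposed cells, came to 0.16, 0.02, 0.10 and -0.01 with that term, and Rab7 shares 15.3% of its sequence with other genes.

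The other calls were small, and none with a value under the counting term held there. Unstimulated, Rab5a (log2 ratio -0.28), Abca7 (-0.27) and Ptk2 (-0.45) were lower, and came to -0.18, -0.03 and -0.17 with the term. Rhog (0.26), Nr1h2 (0.31), Rxra (0.23), Ctsl (0.23) and Lamp1 (0.23) were higher, and came to 0.36, 0.41, 0.24, 0.15 and 0.18. After the first exposure Anxa1 (0.32), Elmo1 (0.25), Msr1 (0.22) and Vkorc1 (0.39), which shares 50% of its sequence with other genes, were higher, and came to 0.21, 0.24, 0.11 and 0.41. C1qa (0.29) and Ctsl (0.26), higher there too, could not be fitted with the term. In washed-out cells Rab5a (-0.44) was lower, and came to -0.39.

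The genes whose authors' means ran most like each member's over the 8 memory groups are given as a description. Pearson's r is of log2(CPM + 1) over 8 groups that share their libraries' depth and counting kind. Axl ran closest to Gm2382 (r = 0.992), Tpt1 (0.982) and Mpc1 (0.982), of which Tpt1 shares 42.2% and Mpc1 24.3% of its sequence with other genes. In washed-out wild-type libraries Tpt1 read 682 CPM in the high and 185 in the low counting kind, and 217 and 214 in knockout-labelled ones, while Axl read 54.7, 61.8, 21.9 and 25.5 in the same order. Mertk ran closest to Fam214a (0.997), Tifa (0.996), an adaptor of NF-κB signalling, and Rin2 (0.995), a Rab5 exchange factor. Mfge8 ran closest to Dhrs4 (0.989), Mpst (0.987) and Ecm1 (0.979), and Gas6 to Ampd3 (0.988), Idua (0.980) and Sgsh (0.973), the last pair being lysosomal enzymes that break down glycosaminoglycans. Pros1 ran closest to Cd84 (0.994), Pqlc3 (0.992) and Fuca2 (0.987), Stab1 to 4933426M11Rik (0.986), Foxj2 (0.984) and Prosapip1 (0.982), and Itgb5 to Sorbs3 (0.990), Ninj1 (0.988) and Frat2 (0.987). Folr2 (Cd81, Tmem129 and Chn2, 0.960 to 0.945) and Cd5l (Med16, Sdf4 and 5730416F02Rik, 0.938 to 0.914) had less similar neighbours.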

How the data were processed

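The authors' deposited tables hold a normalised signal per gene, in CPM (reads scaled to library size), averaged over both samples of a group. The submitters' processing notes name TopHat2 2.0.7, Cufflinks 2.0.2 and mm10, and how each was used is not given in the sources used here. Column totals were 951943 to 1054530. Each mean was split into 2 libraries by the steps that whole reads leave. Of 171808 values above 0, 99.5% had 1 solution. Another 328 had several with a plausible one among them (probability of at least 0.95), and 520 had several of which none could be chosen. A library's 3-read floor was 0.105 to 0.526 CPM.

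log2(CPM + 1) was fitted with limma 3.58.1 (R 4.3.3, limma-trend) with a term and a weight for each group, and an unresolved mean entered as 1 observation of weight 2. Weights were lowest for the restimulated wild-type (0.0791) and 24 h IL-4 (0.211) groups. The filter was a mean of 1 CPM in a compared group, and Benjamini-Hochberg adjustment ran over all genes tested in each of 19 comparisons. Intervals are at 95%. The fit was tested on simulated data. The 2 tables were normalised separately and no level was compared across them.

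Alternatives were a pseudocount of 0.25 CPM, no filter, no group weights, limma-voom on recovered reads, median-of-ratios size factors, counting kind as a term, each library left out and, added after seeing the data, values within a counting kind. The members and lists were chosen with earlier results of these data known. Named beside the members are the 3 genes most correlated with each, genes called among the 4 largest ratios of a list for IL-4, and all called list genes for genotype and GW9662.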

Additional observations from a re-analysis of the deposited data

How the results depend on the processing

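No paired analysis was possible because the deposited columns are group means whose 2 libraries carry no replicate number. Counts below are members called of 9 unless stated, with the count of the report in brackets. The cause of each change was not tested except that limma-voom leaves out genes with an unresolved value (Stab1, and Gas6 in the antagonist experiment). It so has fewer members to call, 8 in the memory experiment. With limma-voom the count was 3 [5] for the first exposure in wild type and 3 [6] in knockout-labelled cells, 1 [3] for washout in knockout-labelled cells, 3 [1] and 2 [7] for restimulation in wild type and knockout-labelled cells, 3 [0] and 2 [5] for second against first exposure in the same order, and 2 [5], 0 [3], 2 [4] and 3 [0] for genotype in unstimulated, first-exposed, washed-out and restimulated cells. Over all genes, in the same order, limma-voom called 2898 [5649], 2371 [4968], 437 [2256], 3936 [590], 1813 [4052], 1059 [38] and 584 [2573]. For genotype it called 15 [2085], 12 [1035], 22 [384] and 715 [2] genes. Totals over all genes are not given for the other settings or with 1 library left out. Those member counts are therefore not read as results about the members. Without group weights the member count was 1 [3] for washout in knockout-labelled cells, 4 [1] and 3 [7] for restimulation, 4 [0] and 2 [5] for second against first exposure, and 2 [5] and 4 [0] for genotype in unstimulated and restimulated cells. Smaller losses without group weights were 4 [5] and 4 [6] for the first exposure (Pros1 in both genotypes, Cd5l in knockout-labelled cells) and 2 [3] and 3 [4] for genotype in first-exposed and washed-out cells (Axl in both), and 8 [9] for IL-4 on GW9662 (Mfge8). With counting kind as a term it was 2 of 8 [0] for second against first exposure in wild type. For genotype it was 2 of 9 [5] in unstimulated and 1 of 8 [3] in first-exposed cells. A pseudocount of 0.25 CPM gave 2 [1] for restimulation and 1 [0] for second against first exposure in wild type. No filter gave 0 of 10 [1], Timd4 included, for restimulation in wild type. The setting with no filter also lost the 24 h IL-4 calls of Mfge8 and Folr2 (limma adjusted p = 0.057 and 0.060). In knockout-labelled cells it lost Pros1 at the first exposure (limma adjusted p = 0.065) and after washout (0.085), and Mfge8 on restimulation (0.13).

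Leaving out 1 library, where the lone library is taken to vary like the other groups, gave 6 to 9 members for 24 h of IL-4, 0 to 0 for GW9662 alone, 0 to 3 for GW9662 added to IL-4, 8 to 9 for IL-4 on GW9662 and 0 to 0 for the difference. In the memory experiment, wild type before knockout-labelled cells, it gave 4 to 5 and 4 to 6 for the first exposure, 2 to 4 and 1 to 4 for washout, 1 to 6 and 4 to 7 for restimulation, and 0 to 9 and 4 to 5 for second against first exposure. For genotype it gave 4 to 6, 2 to 5, 4 to 4 and 0 to 8 in the 4 conditions, and 0 to 0 and 0 to 2 for the differences in response to the first exposure and to pretreatment. Values that were not called with all libraries turned sign, among them some with a restimulated wild-type library left out: second against first exposure in wild type, Mertk ran from -0.58 to 0.97, Axl from -0.24 to 2.09, Cd5l from -0.24 to 1.06 and Gas6 from -0.52 to 0.05, and between genotypes in restimulated cells Mertk ran from -0.24 to 1.31 and Cd5l from -0.17 to 1.13. Of these, Mertk in second against first exposure was called in both directions. A mean that could not be separated, as for Stab1 in restimulated wild-type cells, stayed in the fits with 1 library left out as the mean of both. Counts above that include such a member are not free of the library left out. Within a counting kind, Pros1 at 24 h of IL-4 had log2 ratios of 0.69 (low) and 1.35 (high). Median-of-ratios size factors left 169 of 171 member results as they were, and each group's 2 libraries limit what can be resolved, with Timd4 under the 3-read floor in most libraries.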
